A study of Mus musculus with 12 samples.

Results

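The amino acid response and transport genes are 35 mouse genes that cells use when amino acids run short. They were taken as 10 regulators, 12 biosynthesis enzymes, 9 amino acid transporters of the solute carrier (Slc) families and 4 other genes known as targets of the same response. Members were chosen by gene symbol, with earlier results of these data known. Each probe set that the array annotation assigns to a symbol of the list was used. Of the 35 genes, 34 had a probe set named in the annotation, and all 34 passed the filter on low intensity, among 11815 genes that passed in all. They had 77 probe sets, of which 72 passed. The filter counted treated and untreated arrays alike, so some members passed only through their treated arrays, as named with the processing. Pycr1, which completes proline synthesis, had no named probe set, so its expression was not analysed here and only its promoter sequence was used.

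The samples were mouse cells in 4 groups of 3 Affymetrix arrays each. The groups were treated and untreated cells of mice whose blood cells lack Stat5a and Stat5b, a linked pair of transcription factor genes, and treated and untreated cells of control mice that carry both genes. The labels give the treatment as with or without "GMP" and do not say whether these letters name an agent or the cells, so that only the word treatment is used. The labels give neither the means of deletion, nor the age of the mice, nor whether samples came from separate animals. The p-values therefore measure the spread between these arrays, part of which may be technical. Array titles place the samples on 3 dates, called date 1, date 2 and date 3, with all 4 groups present once on each. On dates 1 and 3 the titles carry the letters "GMP" on treated and untreated arrays alike, and a plus or minus sign marks the treatment. The treated knockout array of date 2 has another number tag in its title than its 3 companions. In bulk RNA, fewer cells of a type and less RNA per cell cannot be told apart.

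When an amino acid is scarce, uncharged transfer RNA activates the kinase GCN2 (gene Eif2ak4), which phosphorylates the translation initiation factor eIF2 alpha. General protein synthesis slows, while the messenger RNA of the transcription factor ATF4 is translated more. ATF4 then binds C/EBP-ATF response elements with C/EBP partners and raises genes for amino acid synthesis, amino acid uptake and feedback control. Other kinases of eIF2 alpha, which respond to stress in the endoplasmic reticulum, to heme shortage or to viral RNA, lead to the same factor, so the pathway is also called the integrated stress response. In myeloid cells, STAT5A and STAT5B carry signals from the GM-CSF receptor and others of its family.

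The arrays of date 2 stood apart in their ratios of 3' to 5' signal, the cause of which was not tested. For Actb the 3' probe set was 20.8 to 266 times as bright as the 5' one on the arrays of date 2, and 1.14 to 2.05 times on the other arrays. For Gapdh the same ratio, which is high where RNA or its labelled product is fragmented, was 28.2 to 80.7 on date 2 and 1.56 to 3.90 elsewhere. The Stat5a intensity was 26.7 to 101 on the 6 knockout arrays, against 375 to 1147 on the 6 control arrays. The Stat5b intensity was 1.80 to 60.5 on the knockout arrays, against 287 to 1531 on the control arrays. Which parts of these genes were deleted is not stated, so a probe set outside them would check nothing.

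Promoter sequences are shown for the members that rose in both genotypes and carry the core of the C/EBP-ATF response element, since this element defines the response. RefSeq promoter windows of build GRCm38.p6, from 250 bases before to 50 bases after the annotated start, were found for 30 of the 35 members. The core was searched as TGATGNAA on both strands, where N is any base. In the stretches below, read 5′ to 3′ on the gene's strand, capitals mark each match to the core or to its reverse complement. The stretches end at the annotated start or before it, except that the Slc1a4 stretch ends with a match that spans the start and the short Trib3 stretch lies after it.
Asns: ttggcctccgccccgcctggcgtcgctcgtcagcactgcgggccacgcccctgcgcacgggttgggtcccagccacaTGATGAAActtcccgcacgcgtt
Chac1: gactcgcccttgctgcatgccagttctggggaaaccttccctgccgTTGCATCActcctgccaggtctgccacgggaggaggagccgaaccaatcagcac
Jdp2: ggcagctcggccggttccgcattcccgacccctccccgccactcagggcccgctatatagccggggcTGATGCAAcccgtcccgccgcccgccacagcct
Nupr1: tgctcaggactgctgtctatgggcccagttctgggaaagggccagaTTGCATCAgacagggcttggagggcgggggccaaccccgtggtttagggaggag
Slc1a4: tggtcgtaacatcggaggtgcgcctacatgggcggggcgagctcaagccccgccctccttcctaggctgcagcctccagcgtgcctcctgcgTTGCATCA
Slc7a11: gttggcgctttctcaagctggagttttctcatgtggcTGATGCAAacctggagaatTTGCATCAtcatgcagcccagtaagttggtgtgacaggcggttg
Trib3: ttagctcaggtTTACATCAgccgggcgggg
These stretches lie at chr6:7693210-7693309 (minus strand), chr2:119351003-119351102 (plus strand), chr12:85599316-85599415 (plus strand), chr7:126625527-126625626 (minus strand), chr11:20332710-20332809 (minus strand), chr3:50443617-50443716 (minus strand) and chr2:152344028-152344057 (minus strand). Slc7a11 is the member shown with 2 matches, 66 and 47 bases upstream of the annotated start and on opposite strands. The match in Asns begins 23 bases upstream of the start, that in Jdp2 33, that in Nupr1 110 and that in Chac1 193. Jdp2 has further annotated starts, and their windows held no match. In Slc1a4 it begins 4 bases upstream and runs over the start, and in Trib3 it begins 14 bases downstream.

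The core was present in the promoter windows of 10 of the 30 members (33.3%), against 1219 of 27025 genes with a window (4.51%). By class it was found in 3 of 9 regulators, 3 of 4 other targets, 2 of 11 biosynthesis enzymes and 2 of 6 transporters. Of the 13 members with a window that rose in both genotypes 7 held a match, and of the other 17 members 3 did, namely Herpud1, Vldlr and Pycr1, the last without a measured level. A STAT site, searched as TTCNNNGAA, which reads the same on both strands, was present in 5 of the 30 members (16.7%), against 9.55% of genes. These are matches of letters and not measured binding, and no test was made of them. Members were listed as genes of the response that the C/EBP-ATF element defines, so their higher share of its core is not separate support.

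Treatment was followed by higher levels of many of these genes in cells of both genotypes. In knockout cells 18 of 34 members rose and 0 fell, where 5.87% of all 11815 genes rose and 3.45% fell (9.32% called either way). In control cells 16 of 34 rose and 0 fell, where 3.39% of all genes rose and 1.77% fell (5.16% called either way). These calls rest on limma fits with date as a block and a Benjamini-Hochberg adjusted p under 0.05. Members were chosen with earlier results of these data known. Their shares beside those of all genes are thus a description and not separate support. The median change over the members, treated over untreated on the log2 scale, was 1.24 in knockout cells, where all genes had a median of -0.02, and 1.26 in control cells, where all genes had a median of -0.04. The change had the same sign on all 3 dates in 33 members in knockout cells, where 51.5% of all genes did so, and in 30 members in control cells, where 50.7% did. Treated and untreated arrays did not overlap in 21 members in knockout cells, where this held for 20.9% of all genes, and in 20 members in control cells, where it held for 16% of all genes. At an unadjusted p under 0.05 the members numbered 24 in knockout cells, where 26.0% of all genes passed, and 28 in control cells, where 22.3% passed. The counts of same sign, of no overlap and of unadjusted p take changes of either direction. They include the negative changes of Ppp1r15a in control cells and of Mthfd1l in knockout cells.

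Of the members, 15 rose in both genotypes, 3 (Ddit4, Slc3a2 and Slc38a2) passed the test in knockout cells alone and Ddit3 in control cells alone. The remaining 15 passed in neither. Over all genes such a split was not counted, so these numbers have no background beside them. This split by genotype depended on the fit, as given below. By class, 6 of 10 regulators rose in knockout cells and 6 in control cells, 1 of 4 other targets in each, 4 of 11 enzymes in each, and 7 of 9 transporters in knockout cells against 5 in control cells. The median log2 change of the regulators was 1.44 in knockout cells and 1.40 in control cells, that of the other targets 1.52 in knockout and 2.04 in control cells, that of the enzymes 0.69 in knockout and 0.75 in control cells, and that of the transporters 1.44 in knockout and 1.26 in control cells. The plot of changes by class shows that every class held both steep and shallow changes. Classes were not tested against each other.

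**Figure D1:**
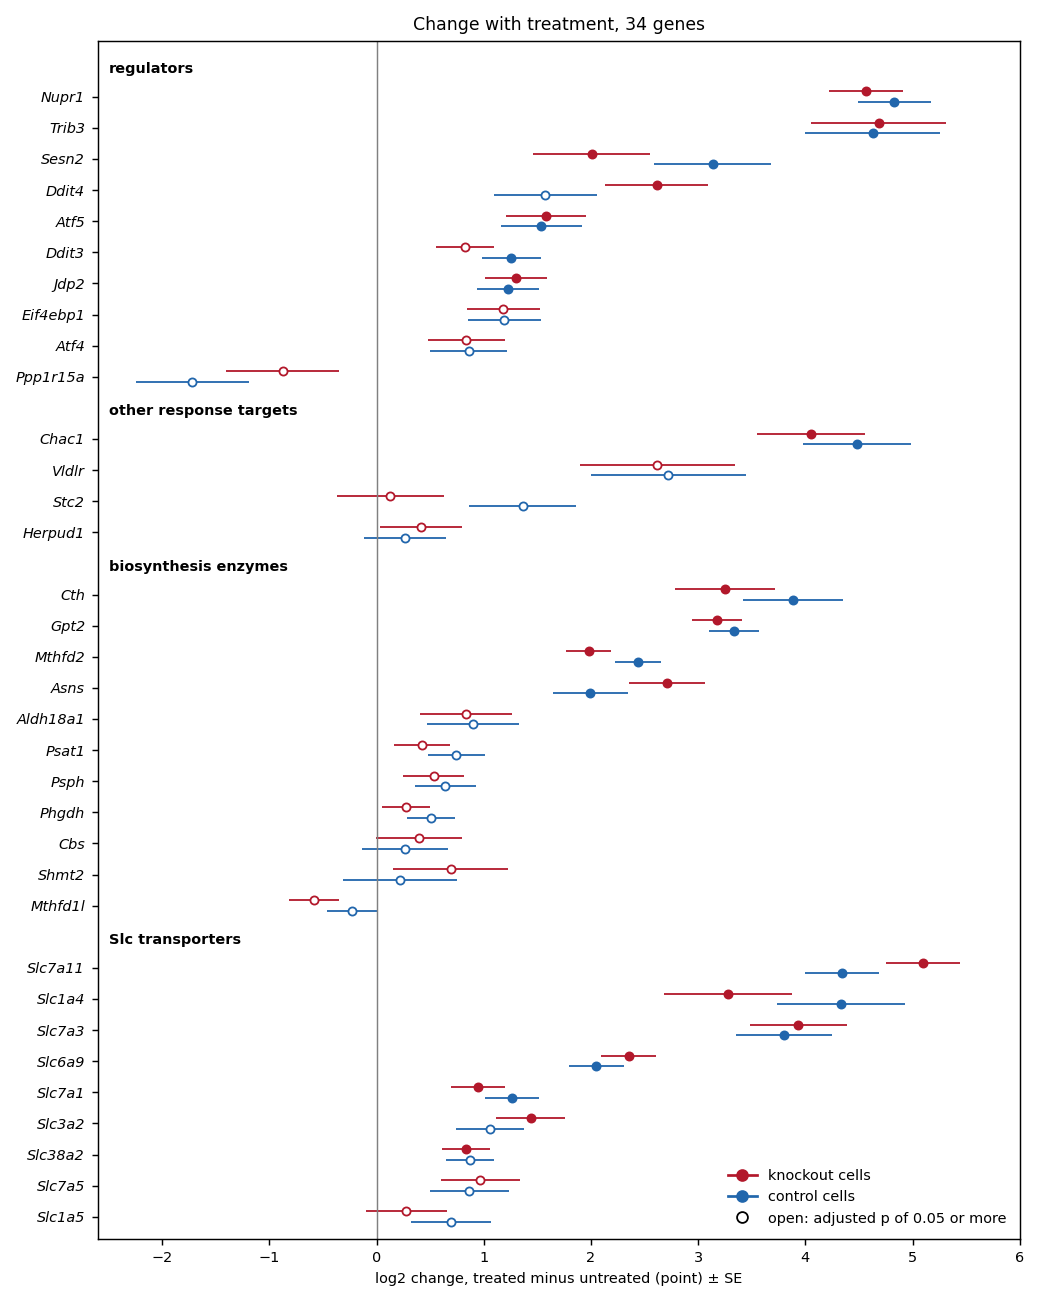
Change with treatment for the representative probe set of each of 34 genes, as log2 of treated over untreated on the horizontal axis with its standard error, in knockout cells (red, upper point) and control cells (blue, lower point). Filled points passed the test, and the changes run from -1.72 for Ppp1r15a in control cells to 5.10 for Slc7a11 in knockout cells.

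The number of members that rose depended on the fit. Without the replicate block, 11 members rose in knockout cells and 10 in control cells, and a fit of only the 6 control arrays called 7. Over all genes the calls either way fell from 1101 to 227 in knockout cells without the block. In control cells they fell from 610 to 111. For the 6-array fit and the fits without 1 array, calls over all genes were not counted. Without the untreated knockout array of date 1, and likewise without that of date 3, 11 members rose in knockout cells, and without the treated control array of date 1, 10 members rose in control cells. Without all arrays of date 2, which had the high 3' to 5' ratios, 17 members rose in knockout cells and 21 in control cells. Calls over all genes went up as well, from 1101 to 1148 in knockout cells and from 610 to 869 in control cells. The members gained without date 2 were Atf4 and Eif4ebp1 in both genotypes, with Aldh18a1, Stc2, Slc3a2 and Slc38a2 in control cells. Slc3a2 then passed in both genotypes and Slc38a2 in control cells alone. With quantile normalization of all arrays Slc38a2 passed in both genotypes.

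Among the regulators, the feedback and stress factors Nupr1, Trib3, Sesn2, Atf5 and Jdp2 rose in both genotypes. Nupr1 encodes a small nuclear protein induced by many stresses. Nupr1 had MAS5 intensities, in the order of the dates, of 534, 1030.4 and 279.6 in treated and 11.4, 9.91 and 9.46 in untreated knockout cells, and 555, 469.6 and 356 in treated and 2.35, 4.0 and 3.81 in untreated control cells. Every treated array lay above every untreated array, and all untreated values were below the constant of 13 that was added before taking logarithms, which understates the change, as do single untreated values of Trib3, Sesn2 and Slc1a4. Nupr1 rose by 4.57 ± 0.34 on the log2 scale in knockout cells (SE, adjusted p = 0.000211) and by 4.83 ± 0.34 in control cells (adjusted p = 0.000156). Trib3 encodes a pseudokinase that binds ATF4 and dampens its activity. Trib3 read 1738, 1327 and 790.1 in treated and 14.7, 69.9 and 35.5 in untreated knockout cells, and 2168, 489.8 and 1272 in treated and 10.9, 54.1 and 45.2 in untreated control cells. The groups did not overlap in either genotype, and the lowest treated value was that of the control array of date 2. Its log2 change was 4.68 ± 0.63 in knockout cells (adjusted p = 0.00271) and 4.63 ± 0.63 in control cells (adjusted p = 0.00411).

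Sesn2 and Ddit4 encode inhibitors of the growth kinase complex mTORC1, and Sesn2 is also a leucine sensor. Sesn2 read 517, 422 and 401 in treated and 86.2, 107 and 109.6 in untreated knockout cells, and 777, 217 and 724 in treated and 66.8, 3.93 and 133 in untreated control cells. Treated values were the higher ones throughout, with the control array of date 2 lowest among the untreated. Sesn2 rose by 2.01 ± 0.55 in knockout cells (adjusted p = 0.0486) and by 3.14 ± 0.55 in control cells (adjusted p = 0.0125). Ddit4 read 1889.5, 669 and 400.3 in treated and 128, 123 and 109 in untreated knockout cells, and 895, 205 and 485 in treated and 128, 142 and 157 in untreated control cells. Untreated values were close together, treated values were spread widely, and the groups did not overlap. Ddit4 rose by 2.61 ± 0.48 in knockout cells (adjusted p = 0.011), and its change of 1.58 ± 0.48 in control cells did not pass (adjusted p = 0.0915).

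Atf5 encodes a bZIP factor whose translation, like that of ATF4, is controlled through eIF2 alpha. Atf5 read 798, 187 and 359 in treated and 167, 102 and 95.9 in untreated knockout cells, and 495, 165 and 565 in treated and 142, 105 and 104 in untreated control cells. Treated arrays lay above untreated arrays, least so on date 2. Atf5 rose by 1.58 ± 0.37 in knockout cells (adjusted p = 0.0294) and by 1.54 ± 0.37 in control cells (adjusted p = 0.047). Jdp2 encodes a bZIP repressor that binds Jun family proteins. Jdp2 read 2759, 2179 and 1252 in treated and 733, 977 and 685 in untreated knockout cells, and 2299.9, 2623 and 1089 in treated and 656, 1166 and 649.9 in untreated control cells. The groups were apart in knockout cells and overlapped in control cells, where the treated array of date 3 lay below the untreated array of date 2. Jdp2 rose by 1.30 ± 0.29 (adjusted p = 0.0231) in knockout cells and by 1.23 ± 0.29 (adjusted p = 0.0405) in control cells. Ddit3 encodes CHOP, a C/EBP family factor of the stress response. Ddit3 read 513, 808 and 409 in treated and 225, 461 and 277 in untreated knockout cells, and 528, 869 and 392 in treated and 132, 508 and 174 in untreated control cells. On every date the treated array exceeded the untreated one, while the dates differed so much that the groups overlapped. Its change was 0.83 ± 0.27 in knockout cells, which did not pass (adjusted p = 0.0904), and 1.26 ± 0.27 in control cells, which did (adjusted p = 0.0307).

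Atf4 itself, the central activator, was abundant and did not pass the test on its representative probe set with all arrays. Atf4 read 9381, 4279 and 7609 in treated and 4728, 2625 and 4285 in untreated knockout cells, and 9112, 1611 and 8721 in treated and 4158, 1075 and 4767 in untreated control cells. Treated arrays exceeded untreated arrays of the same date in each pair, and both control arrays of date 2 were low. The log2 change of Atf4 was 0.84 ± 0.36 in knockout cells (adjusted p = 0.178) and 0.86 ± 0.36 in control cells (adjusted p = 0.205). Without the arrays of date 2 Atf4 passed in both genotypes, and likewise with the mean of its passing probe sets. Eif4ebp1, whose product blocks cap-dependent initiation, had log2 values of treated over untreated of 1.18 ± 0.34 in knockout cells (adjusted p = 0.0584) and 1.19 ± 0.34 in control cells (adjusted p = 0.0762) on its representative probe set. Ppp1r15a encodes GADD34, which brings a phosphatase to eIF2 alpha and so ends the response. It was the regulator with negative changes, -0.87 ± 0.53 in knockout cells (adjusted p = 0.341) and -1.72 ± 0.53 in control cells (adjusted p = 0.0941), neither of which passed. Its treated control arrays all lay below the untreated ones.

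The regulator calls of smaller changes depended on single arrays. In knockout cells the call was lost for Sesn2 without any 1 of the treated knockout arrays of dates 1, 2 and 3, the untreated knockout arrays of dates 1 and 3, the treated control arrays of dates 1 and 3 or the untreated control array of date 1 (adjusted p = 0.0643 to 0.177). That of Atf5 was lost without any 1 of the treated knockout arrays of dates 1 and 3 or the untreated knockout arrays of dates 1 and 3 (adjusted p = 0.0816 to 0.132). That of Jdp2 was lost without any 1 of the treated knockout arrays of dates 1 and 3 or the untreated knockout arrays of dates 1, 2 and 3 (adjusted p = 0.0519 to 0.0931), and that of Ddit4 without the untreated knockout array of date 1 (adjusted p = 0.0505). In control cells the call of Sesn2 was lost without any 1 of the treated control arrays of dates 1 and 3 (adjusted p = 0.0554 to 0.0628), and that of Ddit3 without any 1 of the treated knockout array of date 3, the untreated knockout array of date 1, the treated control arrays of dates 1, 2 and 3 or the untreated control arrays of dates 1 and 3 (adjusted p = 0.0515 to 0.132). The call of Atf5 there was lost without any 1 of the treated knockout array of date 3, the untreated knockout arrays of dates 1 and 3, the treated control arrays of dates 1 and 3 or the untreated control arrays of dates 1, 2 and 3 (adjusted p = 0.0575 to 0.175), and that of Jdp2 without any 1 of the treated knockout array of date 3, the untreated knockout arrays of dates 1 and 3, the treated control arrays of dates 1, 2 and 3 or the untreated control arrays of dates 1, 2 and 3 (adjusted p = 0.0529 to 0.168). Without date 2, the call of Jdp2 was lost in both genotypes. Nupr1 and Trib3 kept their calls whichever of the 12 arrays was left out.

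Of the 4 other targets, Chac1 rose in both genotypes. Chac1 encodes an enzyme that degrades glutathione and is a known ATF4 target. Chac1 read 1704, 1569 and 792 in treated and 51.4, 83.9 and 64.3 in untreated knockout cells, and 1819, 1282 and 1274 in treated and 58.5, 15.7 and 121 in untreated control cells. Treated and untreated arrays were far apart in both genotypes, and the lowest value was that of the untreated control array of date 2. Chac1 rose by 4.05 ± 0.50 in knockout cells (adjusted p = 0.00182) and by 4.48 ± 0.50 in control cells (adjusted p = 0.00167), and passed without any 1 array. Vldlr, a receptor for lipoproteins, had values of 2.62 ± 0.72 in knockout cells (adjusted p = 0.0512) and 2.72 ± 0.72 in control cells (adjusted p = 0.0613) on its representative probe set, neither past the test. Stc2, a secreted glycoprotein, had values of 0.13 ± 0.50 in knockout cells (adjusted p = 0.908) and 1.36 ± 0.50 in control cells (adjusted p = 0.151). Herpud1, which serves degradation of proteins from the endoplasmic reticulum, had values of 0.42 ± 0.38 in knockout cells (adjusted p = 0.552) and 0.26 ± 0.38 in control cells (adjusted p = 0.746).

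Among the biosynthesis enzymes the same 4 genes, Gpt2, Cth, Asns and Mthfd2, rose in knockout and in control cells. Gpt2 encodes the mitochondrial alanine aminotransferase. Gpt2 read 1211, 1168 and 1357 in treated and 128, 100.1 and 155 in untreated knockout cells, and 2101, 1639 and 1438 in treated and 155, 152 and 164 in untreated control cells. The 3 arrays of each group lay close together, and no treated array came near an untreated one. Gpt2 rose by 3.18 ± 0.23 in knockout cells (adjusted p = 0.00021) and by 3.34 ± 0.23 in control cells (adjusted p = 0.000156). Cth makes cysteine from cystathionine in the transsulfuration pathway. Cth read 1110.4, 217 and 1053 in treated and 48.1, 59.2 and 59.0 in untreated knockout cells, and 1564, 383 and 865 in treated and 43.3, 16.3 and 90.1 in untreated control cells. On date 2 the treated values were the lowest in either genotype and were still above all untreated values. Cth rose by 3.25 ± 0.47 (adjusted p = 0.00364) in knockout cells and by 3.88 ± 0.47 (adjusted p = 0.00207) in control cells.

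Asns encodes asparagine synthetase, a standard reporter of the amino acid response. Asns read 7975, 8396 and 8344 in treated and 1177, 1107 and 1494 in untreated knockout cells, and 8953, 2573 and 7801 in treated and 1279.9, 1173 and 1851 in untreated control cells. The treated knockout arrays agreed closely, while the treated control array of date 2 was low, and groups did not overlap. Asns rose by 2.71 ± 0.35 in knockout cells (adjusted p = 0.00237) and by 2.00 ± 0.35 in control cells (adjusted p = 0.0128). Mthfd2 encodes an enzyme of mitochondrial folate metabolism that works with serine breakdown. Mthfd2 read 8115, 9557 and 8569 in treated and 1659, 2812 and 2294 in untreated knockout cells, and 9141, 12888 and 8804 in treated and 1588, 2351 and 1718 in untreated control cells. Treated arrays were well above untreated arrays on all dates. Mthfd2 rose by 1.98 ± 0.21 (adjusted p = 0.00099) in knockout cells and by 2.44 ± 0.21 (adjusted p = 0.000394) in control cells. The call of Asns in control cells was lost without any 1 of the treated control arrays of dates 1 and 3 or the untreated control arrays of dates 1 and 3 (adjusted p = 0.0534 to 0.0736), while the other enzyme calls held in all 12 fits without 1 array.

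The other 7 enzymes did not pass in either genotype. They include the 3 steps of serine synthesis, Phgdh (0.27 in knockout and 0.50 in control cells), Psat1 (0.42 in knockout and 0.75 in control cells) and Psph (0.53 in knockout and 0.64 in control cells), with adjusted p between 0.14 and 0.499. The Phgdh intensity, on a probe set of the type marked as able to bind other transcripts, was 8890 to 14796 on the knockout arrays and 7705 to 17660 on the control arrays. Shmt2, which feeds serine carbon into mitochondrial folate, had values of 0.69 ± 0.54 in knockout cells and 0.22 ± 0.54 in control cells. Mthfd1l, which releases formate from the same organelle, had negative values of -0.58 ± 0.23 in knockout cells (adjusted p = 0.155) and -0.23 ± 0.23 in control cells (adjusted p = 0.627), and its treated knockout arrays all lay below the untreated ones. Aldh18a1, which starts proline synthesis, had values of 0.84 ± 0.43 in knockout cells and 0.90 ± 0.43 in control cells. Cbs, which makes the substrate of Cth, had values of 0.40 ± 0.40 in knockout cells and 0.27 ± 0.40 in control cells.

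Of the 9 transporters, Slc7a11, Slc7a3, Slc1a4, Slc6a9 and Slc7a1 rose in both genotypes. Slc7a11 encodes the light chain of the exchanger that imports cystine for glutamate. Slc7a11 read 2059.9, 980.5 and 1903 in treated and 30.9, 43.9 and 26.4 in untreated knockout cells, and 1406, 796 and 1271 in treated and 34.2, 56.6 and 40.9 in untreated control cells. Untreated values were all below 60 and treated values all above 700. Slc7a11 rose by 5.10 ± 0.34 in knockout cells (adjusted p = 0.00021) and by 4.34 ± 0.34 in control cells (adjusted p = 0.000243). Slc7a3 carries cationic amino acids such as arginine and lysine. Slc7a3 read 1164, 719 and 606 in treated and 39.2, 57.1 and 27.8 in untreated knockout cells, and 1745, 433 and 663 in treated and 30.4, 65.4 and 44.5 in untreated control cells. Every treated array exceeded every untreated array. Slc7a3 rose by 3.93 ± 0.45 (adjusted p = 0.00129) in knockout cells and by 3.80 ± 0.45 (adjusted p = 0.00196) in control cells.

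Slc1a4 carries small neutral amino acids such as alanine and serine. Slc1a4 read 332, 809 and 133 in treated and 19.4, 73.0 and 3.35 in untreated knockout cells, and 707, 1558 and 210.2 in treated and 21.1, 8.34 and 29.5 in untreated control cells. The arrays of a group varied widely, with date 2 highest among the treated, and treated and untreated arrays did not overlap. Slc1a4 rose by 3.28 ± 0.60 in knockout cells (adjusted p = 0.0106) and by 4.33 ± 0.60 in control cells (adjusted p = 0.00437). Slc6a9 is a glycine transporter. Slc6a9 read 738, 1107 and 676 in treated and 141, 173 and 139 in untreated knockout cells, and 1072, 855 and 699 in treated and 158, 221 and 223 in untreated control cells. Treated and untreated arrays were well apart on every date. Slc6a9 rose by 2.35 ± 0.26 (adjusted p = 0.000991) in knockout cells and by 2.05 ± 0.26 (adjusted p = 0.00257) in control cells.

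Slc7a1, the widely expressed cationic amino acid transporter, was bright before treatment. Slc7a1 read 10820.3, 17398 and 12261 in treated and 6102, 7417 and 7117 in untreated knockout cells, and 13479.6, 28256 and 12672 in treated and 6324, 8044 and 6837 in untreated control cells. No treated array overlapped an untreated one, and both treated arrays of date 2 were the highest of their group. Slc7a1 rose by 0.95 ± 0.25 in knockout cells (adjusted p = 0.0432) and by 1.26 ± 0.25 in control cells (adjusted p = 0.0205). Slc3a2 encodes the heavy chain that Slc7a11 and Slc7a5 need at the cell surface. Slc3a2 read 7861, 11295 and 7385 in treated and 2895, 4112 and 2740.4 in untreated knockout cells, and 7453, 3961 and 7042 in treated and 3065, 2369.8 and 3147 in untreated control cells. Groups were apart in both genotypes, least so for the control arrays of date 2. Slc3a2 rose by 1.44 ± 0.32 (adjusted p = 0.0239) in knockout cells, and its change of 1.06 ± 0.32 in control cells did not pass (adjusted p = 0.091). Slc38a2, a sodium-coupled carrier of small neutral amino acids, rose by 0.84 ± 0.22 (adjusted p = 0.0448) in knockout cells, and had a value of 0.87 ± 0.22 (adjusted p = 0.054) in control cells. Slc7a5, the carrier of large neutral amino acids, had values of 0.97 ± 0.37 in knockout cells (adjusted p = 0.137) and 0.87 ± 0.37 in control cells (adjusted p = 0.215). The glutamine carrier Slc1a5 had values of 0.28 ± 0.37 in knockout cells (adjusted p = 0.699) and 0.70 ± 0.37 in control cells (adjusted p = 0.325).

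For the transporters in knockout cells, the call was lost for Slc38a2 without any 1 of the treated knockout arrays of dates 1, 2 and 3, the untreated knockout arrays of dates 1, 2 and 3, the treated control arrays of dates 1 and 3 or the untreated control arrays of dates 1 and 3 (adjusted p = 0.0673 to 0.154). For Slc7a1 it was lost without any 1 of the treated knockout arrays of dates 1, 2 and 3, the untreated knockout arrays of dates 1, 2 and 3, the treated control arrays of dates 1 and 3 or the untreated control arrays of dates 1, 2 and 3 (adjusted p = 0.0513 to 0.15). For Slc3a2 it was lost without any 1 of the treated knockout arrays of dates 2 and 3 or the untreated knockout arrays of dates 1 and 3 (adjusted p = 0.0556 to 0.11), and for Slc1a4 without any 1 of the treated knockout array of date 2 or the untreated knockout array of date 3 (adjusted p = 0.0512 to 0.057). In control cells the call of Slc7a1 was lost without any 1 of the treated control array of date 1 or the untreated control arrays of dates 1, 2 and 3 (adjusted p = 0.0634 to 0.085). Without date 2, those of Slc38a2 and Slc7a1 in knockout cells were lost, while Slc38a2 and Slc3a2 passed in control cells. The calls of Slc7a11, Slc7a3 and Slc6a9 held in both genotypes in all 12 fits without 1 array.

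**Figure D2:**
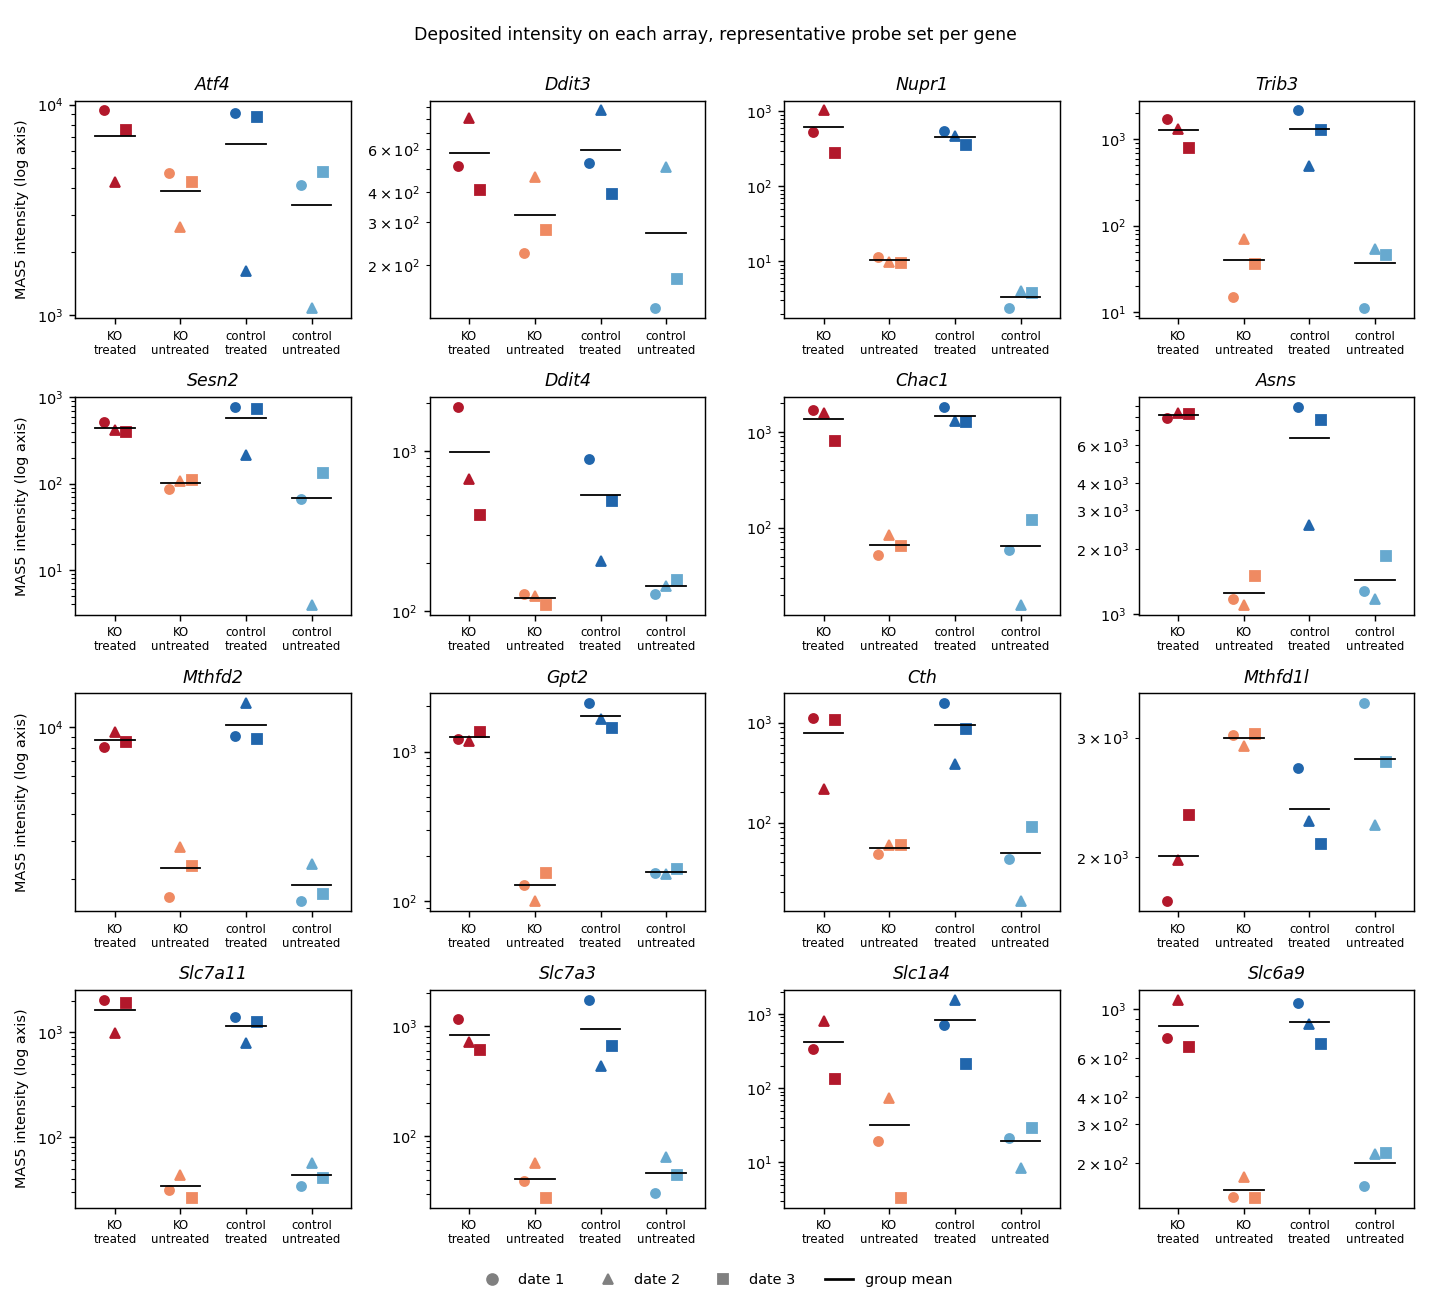
Deposited MAS5 intensity (vertical log axes, which differ between panels) on each of the 12 arrays for 16 of the genes, with columns for treated and untreated knockout cells and then treated and untreated control cells, symbols for the 3 dates and a bar at each group mean. Nupr1, Gpt2 and Slc7a11 show treated and untreated arrays far apart in both genotypes, while Ddit3 and Atf4 show groups that overlap and dates that differ.

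Other probe sets of the members bear on some of these calls. Besides the representatives, 38 probe sets of 22 members passed the filter, of which 15 rose in knockout cells and 19 in control cells, and none fell. Of all 9548 passing probe sets that were not representatives, 5.65% rose in knockout cells and 2.88% in control cells. Counting a gene by any of its probe sets gave 20 members that rose in knockout cells, where 8.12% of all genes rose by this rule, and 20 in control cells, where 4.69% did. These shares were not matched for the number of probe sets per gene. Vldlr joined in both genotypes, since 3 of its 4 other probe sets rose in knockout cells (2.56 to 3.84) and 4 of 4 in control cells (2.27 to 3.76). Eif4ebp1 joined likewise, with both other probe sets past the test (0.95 and 1.42 in knockout cells, 0.97 and 1.70 in control cells). Aldh18a1 joined in control cells alone, where all 4 of its other probe sets rose (1.16 to 1.48), while in knockout cells these had changes between 0.33 and 0.98 that did not pass. All 4 are of the type marked as able to bind other transcripts. Atf4 had 1 such probe set, with 0.69 ± 0.30 in knockout cells (adjusted p = 0.19) and 1.33 ± 0.30 in control cells (adjusted p = 0.0368).

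Some probe sets differed from the representative of their gene. For Ddit3 another probe set gave 0.06 ± 0.84 in knockout cells and -1.26 ± 0.84 in control cells and passed in neither. For Slc38a2 the other 2 probe sets gave 0.45 and -0.22 in knockout cells and -0.12 and -0.41 in control cells, none past the test. Smaller changes than on the representative were also read for Slc1a4 (1.94 and 2.68 in knockout cells, 2.20 and 2.22 in control cells), Slc6a9 (0.99 in knockout and 0.82 in control cells) and Gpt2 (1.35 to 2.01 in knockout and 0.96 to 2.83 in control cells). Of these, 1 probe set of Slc1a4, that of Slc6a9 and 2 of 3 of Gpt2 passed in knockout cells. In control cells 2 of 3 of Gpt2 passed, and none of Slc1a4 or Slc6a9. The other probe set of Sesn2 gave 1.48 ± 0.88 in knockout cells and 2.10 ± 0.88 in control cells without passing. For Slc7a1 the other passing probe set rose by 1.02 ± 0.20 in knockout cells (adjusted p = 0.0155) and by 1.31 ± 0.20 in control cells (adjusted p = 0.00791). That of Asns, of the type marked as able to bind other transcripts, rose by 2.76 ± 0.26 in control cells (adjusted p = 0.000512). No probe set passed in the direction opposite to a representative that passed.

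**Figure D3:**
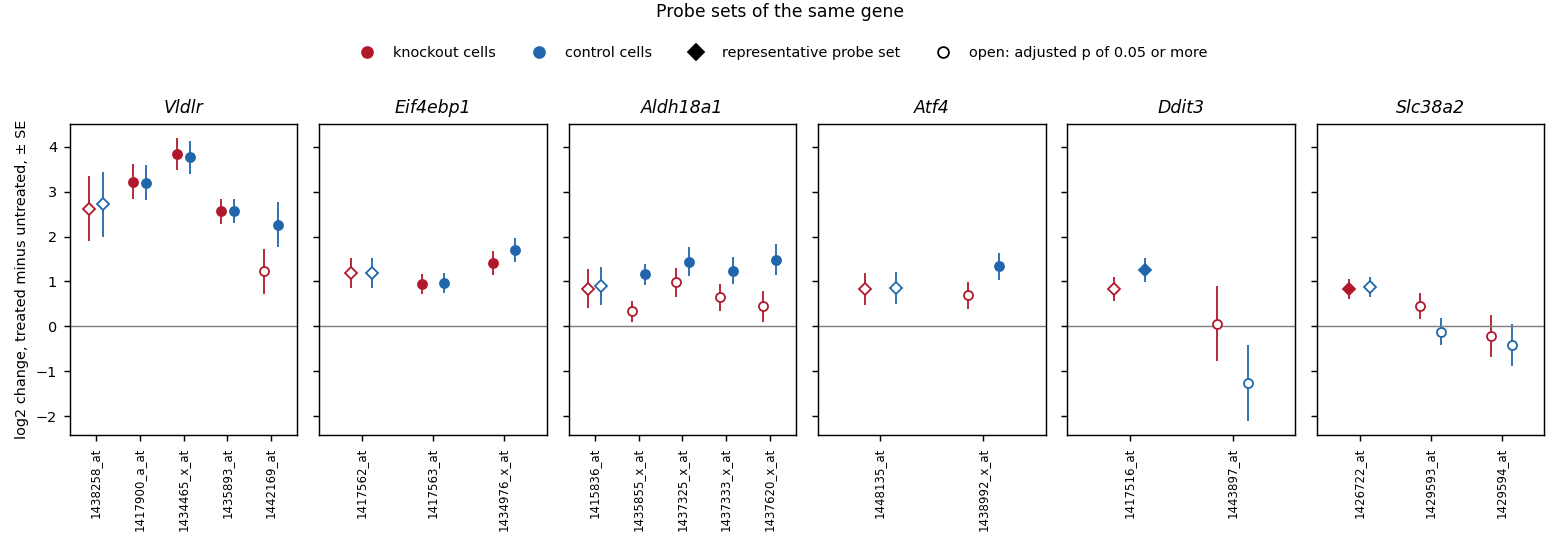
Change with treatment (log2 of treated over untreated, with standard error, on the vertical axis) for each passing probe set of 6 genes, in knockout cells (red, left) and control cells (blue, right). Diamonds mark the representative probe set and filled symbols passed the test; the probe sets of Vldlr and Eif4ebp1 lie on the same side of 0, while those of Ddit3 and Slc38a2 do not.

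The title of the series asks about the part of STAT5A and STAT5B in granulopoiesis. For these genes the test of the difference between the responses of knockout and control cells made no call. At an adjusted p under 0.05 in limma 0 of 34 members differed, where 0% of all 11815 genes did, and at an unadjusted p under 0.05 there were 0 of 34 members and 266 of all genes. The differences, as the log2 change in knockout cells minus that in control cells, ran from -1.23 to 1.04 with a median of -0.05, where all genes had a median of 0.03. In 20 of 34 members the change was larger in control cells. Across the 34 members the 2 changes had a Pearson correlation of 0.948, and across all 11815 genes of 0.800, as a description of genes that share the same arrays and dates and are not replicates. The 95% confidence interval of such a difference reached a median of 0.933 to each side over all genes.

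The narrowest intervals among the members were those of Mthfd2, Slc38a2, Phgdh and Gpt2. Mthfd2 had a difference of -0.46 with an interval of -1.13 to 0.21, Gpt2 one of -0.16 (-0.89 to 0.57), Slc38a2 one of -0.04 (-0.74 to 0.66) and Phgdh one of -0.23 (-0.94 to 0.47). On the representative probe sets the intervals of Gpt2, Slc38a2 and Phgdh lie within 1 on the log2 scale in both directions. That of Mthfd2 ends at -1.13. For Slc38a2 the bound did not hold on its other passing probe sets, which gave 0.56 (-0.36 to 1.48) and 0.19 (-1.29 to 1.66). No such bound is given for the other passing probe sets of Gpt2 and Phgdh. For Atf4 the difference was -0.02 (-1.14 to 1.10) and for Asns 0.71 (-0.39 to 1.82). Genes that passed in 1 genotype alone made no call in this test either, with differences of 1.04 for Ddit4 (-0.47 to 2.55), 0.38 for Slc3a2 (-0.63 to 1.39) and -0.43 for Ddit3 (-1.29 to 0.43). The difference had 1 sign on all 3 dates in 8 of 34 members, where 27.8% of all genes did so. Slc7a11 had a difference of 0.76 (-0.32 to 1.84), and its other probe set gave 0.54 (-1.13 to 2.22), with a negative value on date 1. Sesn2 had a difference of -1.13 (-2.84 to 0.59), and its other probe set gave -0.62 (-3.38 to 2.14), with a positive value on date 1.

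Stc2 had the largest difference in size, -1.23 (-2.80 to 0.33). Its other 2 probe sets had differences of -0.89 (-1.84 to 0.06) and -1.54 (-3.35 to 0.27), in the same direction and not past the test. Among the 38 other probe sets, 1 of Aldh18a1 had an unadjusted p under 0.05 for the difference (-0.83, interval -1.56 to -0.10), and its adjusted p was 1.0.

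**Figure D4:**
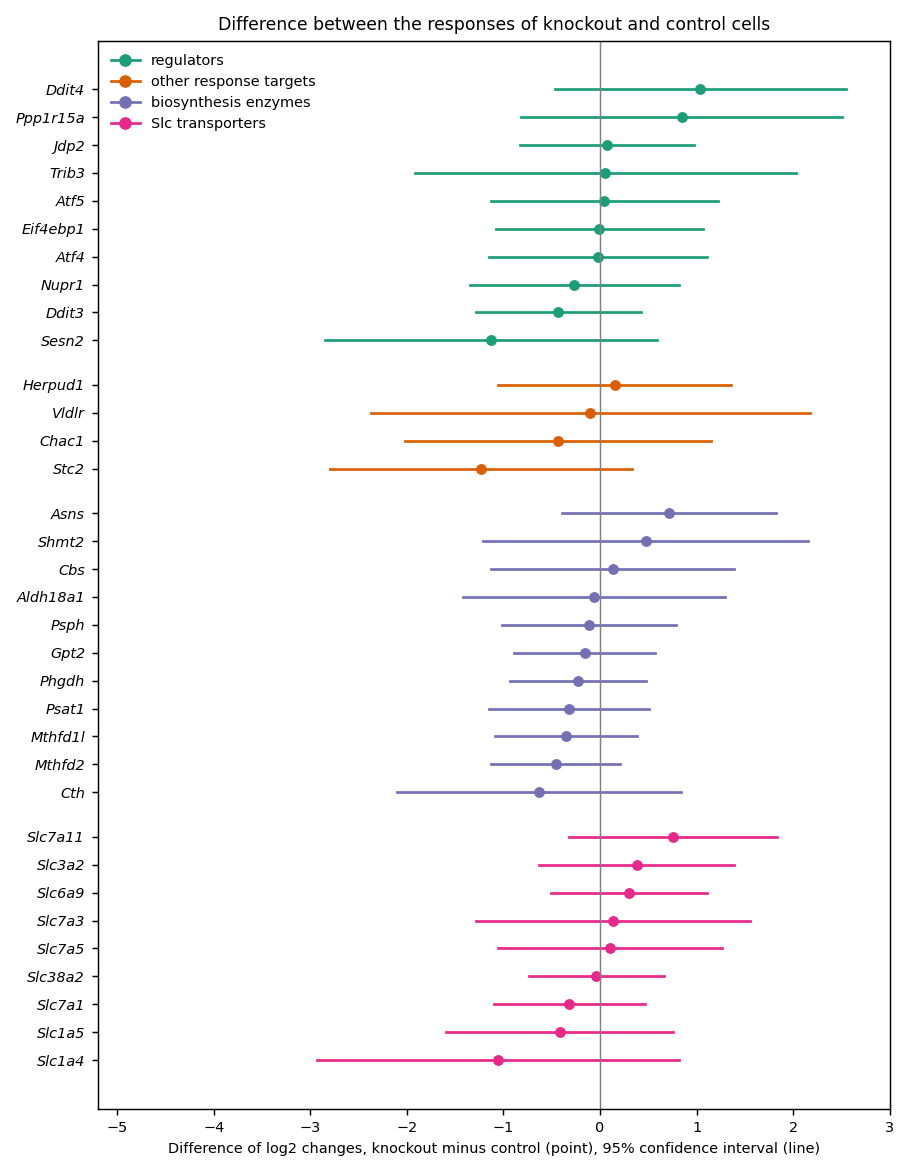
Difference between the treatment changes of knockout and control cells (knockout minus control, log2, horizontal axis) for 34 genes ordered within their classes, as a point with its 95% confidence interval. All 34 intervals cross 0, and points run from -1.23 for Stc2 to 1.04 for Ddit4.

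Levels of these genes were also set directly between the genotypes. In treated cells 0 of 34 members differed between knockout and control cells at an adjusted p under 0.05, where 0.0592% of all genes were lower and 0% higher in knockout cells. In untreated cells 0 of 34 differed, where 0.0169% of all genes were lower in knockout cells and 0% higher. At an unadjusted p under 0.05 there was 1 of 34 members in treated cells, Herpud1, where 8.93% of all genes passed, and 0 in untreated cells, where 1.93% passed. The share of members was thus no higher than that of all genes. Herpud1 read 5553, 4636 and 3721 in treated and 3280.2, 3389.8 and 3623 in untreated knockout cells, and 4119.9, 1033 and 2972 in treated and 1884, 1751 and 2212 in untreated control cells. The untreated knockout arrays all lay above the untreated control arrays, and the treated groups overlapped. Herpud1 had a log2 value, knockout over control, of 0.97 ± 0.38 with treatment (adjusted p = 0.584) and of 0.82 ± 0.38 without it (adjusted p = 1.0). The other probe set of Herpud1 gave 1.05 ± 0.43 with treatment (adjusted p = 0.584). Atf4 had values of 0.42 ± 0.36 in treated and 0.44 ± 0.36 in untreated cells, neither past the test.

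Other genes of connected pathways were described by 6 lists, with the counts of all genes above as their background. These lists too were chosen with earlier results of these data known. Of 14 further regulators of the integrated stress response that were tested, among them the 4 eIF2 alpha kinases, 2 rose in knockout cells and 1 in control cells, with median log2 changes of 0.12 in knockout and -0.06 in control cells. Cebpb, a partner of ATF4 on its response elements, rose by 1.56 ± 0.30 in knockout cells and 1.68 ± 0.30 in control cells, and Atf3, a stress-induced repressor, rose by 4.18 ± 1.09 in knockout cells and had a value of 2.65 ± 1.09 in control cells (adjusted p = 0.201). Of 14 other amino acid transporters 2 rose in knockout cells, the taurine carrier Slc6a6 (1.27) and Slc7a8 (0.86), and 0 in control cells (median 0.31 in knockout and 0.13 in control cells). Of 15 other enzymes of serine, folate, proline, arginine and methionine metabolism 1 rose and 2 fell in knockout cells, and 1 rose and 1 fell in control cells (medians -0.29 in each). Arg2, the mitochondrial arginase, rose by 4.04 in knockout cells and 2.90 in control cells. Prodh, which breaks down proline, fell by 1.21 in knockout cells and fell by 1.05 in control cells, and Mthfd1, a cytosolic folate enzyme, fell by 1.68 in knockout cells.

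Of 16 genes of the unfolded protein response of the endoplasmic reticulum 3 rose and 1 fell in knockout cells, and 1 rose and 1 fell in control cells, with medians of -0.30 in knockout and -0.22 in control cells. The degradation factor Sel1l rose by 1.01 in knockout cells and 1.09 in control cells. The chaperone complex gene Sdf2l1 fell by 1.67 in knockout cells and fell by 1.53 in control cells. The chaperone gene Hspa5, a standard reporter of that response, had values of 0.03 ± 0.28 in knockout cells and -0.27 ± 0.28 in control cells and did not pass. Of 13 genes of cytosolic aminoacyl-tRNA synthetases and tRNA export 4 rose in knockout cells and 3 in control cells (median 0.76 in knockout and 0.71 in control cells), among them the alanyl-tRNA synthetase gene Aars, with 1.54 in knockout and 1.54 in control cells. Of 7 antioxidant genes of the NRF2 pathway, which also raises Slc7a11, 6 rose in knockout cells and 2 in control cells (median 1.54 in knockout and 1.01 in control cells). The sulfiredoxin gene Srxn1 rose by 4.17 ± 0.50 in knockout cells and 2.73 ± 0.50 in control cells. The heme oxygenase gene Hmox1 rose by 4.84 ± 0.73 in knockout cells and had a value of 2.10 ± 0.73 in control cells (adjusted p = 0.132).

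None of these lists had a call in the difference of responses or between genotypes. Of the 21 calls made in knockout cells over these 6 lists, 4 held in every fit without 1 array (Arg2, Srxn1, Hmox1 and Aars), and of the 10 in control cells 1 did (Arg2). The other calls were lost without at least 1 array, with adjusted p of up to 0.175. Without the replicate block 6 of the 21 calls in knockout cells and 3 of the 10 in control cells were kept.

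Marker genes of cell types were followed over the same arrays. Of 14 markers of granulocyte-macrophage progenitors 13 passed the filter, and their summed intensity was 95755 to 164932 in treated and 94044 to 210807 in untreated knockout cells, and 96629 to 272927 in treated and 98064 to 209375 in untreated control cells. The median log2 change of the 13 was -0.30 in knockout cells and -0.23 in control cells. The receptor gene Csf2rb was the 1 marker of the list that passed, with 1.51 in knockout cells and 1.66 in control cells. Its call was lost in both genotypes without the block. In knockout cells it was also lost without any 1 of the treated array of date 2 or the untreated arrays of dates 2 and 3 (adjusted p up to 0.0666), and in control cells without any 1 of the treated array of date 3 or the untreated arrays of dates 2 and 3 (adjusted p up to 0.0696). Of 7 T and NK cell markers Nkg7 alone passed the filter, with 1169 to 5597 in treated and 8002 to 9645 in untreated knockout cells, and 1425 to 4667 in treated and 7710 to 8613 in untreated control cells. Of 6 B cell markers 3 passed the filter, with sums of 322 to 689 in treated and 745 to 1107 in untreated knockout cells, and 314 to 408 in treated and 596 to 959 in untreated control cells. Cd3e, Cd3g, Cd79a and Ebf1 did not pass the filter. For mast cells and basophils 4 of 7 markers passed, with sums of 2799 to 6254 in treated and 4485 to 6848 in untreated knockout cells, and 3259 to 6446 in treated and 5572 to 9618 in untreated control cells. No marker of these last 3 lists passed the test, and their part in the results was not tested.

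Markers of red cell, platelet and stromal lineages had no call in any comparison. The 6 of 10 erythroid markers that passed the filter summed to 2094 to 5357 in treated and 2824 to 4954 in untreated knockout cells, and to 3788 to 6390 in treated and 3582 to 6422 in untreated control cells. Megakaryocyte markers, of which 5 of 7 passed, summed to 1043 to 4949 in treated and 1074 to 1932 in untreated knockout cells, and to 1348 to 2568 in treated and 1649 to 3012 in untreated control cells. For stroma and endothelium 3 of 8 passed, with sums of 181 to 330 in treated and 340 to 431 in untreated knockout cells, and 207 to 553 in treated and 229 to 579 in untreated control cells.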

How the data were processed

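The authors deposited MAS5 intensities of 45101 probe sets on 12 Mouse430_2 arrays, per the submitters' processing notes. The MAS5 version and scaling target are not given in the sources used here. The mean intensity without the lowest and highest 2% of probe sets was 500.003 to 500.004 on every array. The table of the whole series matched 1 column to each array.

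Groups were read from the labels. Of the probe sets, 34945 carried 1 gene symbol, 932 several and 9160 none, and 64 were controls. Gene IDs of 34741 were found in the RefSeq table. Probe sets entered the tests when 3 or more of the 12 arrays had an intensity above 70.5, which is the median over the whole table. The representatives of Nupr1, Trib3, Slc7a11 and Slc7a3 had no untreated array above it. Those of Chac1, Cth, Slc1a4, Vldlr and Cbs had too few to pass by untreated arrays alone. With no filter Nupr1, Trib3, Slc7a11, Slc7a3, Chac1, Cth and Slc1a4 kept their calls in both genotypes. A constant of 13 (the 20th percentile) was added to the deposited intensities before taking log2, so that changes of dim probe sets are understated.

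All passing probe sets with 1 symbol were fitted together in limma 3.58.1 (R 4.3.3) with the array date as a block. Benjamini-Hochberg adjustment ran over all of them for each of 5 comparisons. A gene was called by its brightest probe set, with sets of cross-hybridising type used where there was no other. Dates were taken to pair the arrays because titles give them. Deviations from group means correlated at 0.367 to 0.750 between arrays of the same date (18 pairs) and at -0.680 to 0.435 between arrays of different dates (36 pairs). The fit was tested on simulated data. Other steps used Python 3.11.15, pandas 2.3.3, numpy 2.4.6 and matplotlib 3.10.9.

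Values on every array are given for members that passed with a log2 change of at least 1 in size and for Atf4, and for Herpud1, which was chosen after its values were seen. Other members are given by value or range, and up to 6 genes per list are named. The members and the lists of other genes were chosen with earlier results of these data known. Alternatives covered the block, date 2, the constant, the filter, quantile normalization, the choice of probe set, the groups in the fit and leaving out each array.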

Additional observations from a re-analysis of the deposited data

How the results depend on the processing

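No member fell under any alternative, and no member was called in the difference of responses or between genotypes. Without the replicate block, 11 members rose in knockout cells and 10 in control cells, against 18 in knockout cells and 16 in control cells with it. Over all genes the calls without the block numbered 227 in knockout and 111 in control cells, against 1101 in knockout and 610 in control cells with it. Without date 2 they numbered 1148 in knockout and 869 in control cells. With quantile normalization they numbered 1087 in knockout and 636 in control cells. A fit of only the groups compared gave 15 in knockout cells and 7 in control cells, and it has no value for the difference of responses, which needs all 4 groups. Leaving out each array in turn gave 11 to 20 members in knockout cells and 10 to 19 in control cells, and 10 of the 18 and 10 of the 16 calls held in all 12 such fits. Without date 2 there were 17 in knockout and 21 in control cells, of which 15 in each genotype were also called with all dates. In knockout cells a constant of 1 gave 15, a constant of 64 gave 20, no filter 14, a filter on 6 arrays 20, quantile normalization 17, 1 probe set per gene 20 and the mean of passing probe sets 19. In control cells the same alternatives, in that order, gave 14, 19, 13, 17, 16, 17 and 20. With that mean the change of Ddit3 in control cells turned to -0.00141, where its 2 probe sets had opposite signs. Otherwise the cause of a lost or gained call was not tested. With 3 arrays per group, the number of arrays limits the precision of each change and difference.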
